A study of Mus musculus with 8 samples.

Results

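The genes described are the TNF shedding proteases *Adam8*, *Adam9*, *Adam10* and *Adam17*, the iRhom genes *Rhbdf1* and *Rhbdf2*, *Litaf*, and the TNF receptors *Tnfrsf1a* and *Tnfrsf1b*. They were picked by symbol, as 9 of the 24059 gene symbols counted in each sample. Their levels were measured by RNA-seq in BMMCs (bone marrow–derived mast cells), which grow out of cultured mouse marrow. In 4 samples the cells had been transfected with a Cas9-gRNA ribonucleoprotein (RNP) against *Zc3h12a*, the gene of the RNA-cutting enzyme Regnase-1, and in 4 samples with a scrambled RNP. The question was how the loss of Regnase-1 changes the RNA of resting mast cells. All samples came from C57BL/6 bone marrow (mice 6 to 8 wk old) kept in IL-3 for at least 4 wk before transfection and for 1 wk after it, with no stimulation. The labels give the genotype as *Zc3h12a* WT after the scrambled RNP and *Zc3h12a* KO after the *Zc3h12a* RNP. The study's methods describe 3 crRNAs for *Zc3h12a* and 1 non-targeting crRNA, and name no sorting or cloning of edited cells, so that each sample is a pool. *Adam8*, *Litaf* and *Tnfrsf1b* were chosen by values of this same contrast, in which the study lists them as raised. Their differences are therefore given as a description, with no test, and where a count of calls includes them it stands beside the share of all genes and nothing is read from it.

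TNF is made as a membrane protein, and its release needs a cut close to the membrane. ADAM17, also called TACE, is the main protease that makes this cut, and it sheds TNF receptors as well. The iRhoms are inactive relatives of rhomboid proteases that carry ADAM17 from the endoplasmic reticulum to the cell surface. Released and membrane-bound TNF act on TNFR1, which has a death domain, and TNFR2, which has none and is found mainly on immune cells. Mast cells are known for storing TNF in granules and for making it anew when activated. Regnase-1 cuts mRNAs at stem-loops of the 3′UTR with a loop of pyrimidine, purine and pyrimidine.

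The stem-loops of this form are shown because the enzyme whose gene was targeted is known to cut at such sites. They were looked for in the 3′UTR of each gene's canonical GENCODE transcript (GRCm39), as 5 paired bases with no more than 1 G-T pair around a loop of 3 bases. All lie on the minus strand and are written 5′ to 3′ as DNA, with the loop in capitals. *Tnf*, the substrate, held 2 in 764 bases of 3′UTR, *Litaf* 1 in 1668 bases and *Tnfrsf1b* 1 in 3419 bases. *Adam9* held 1 in 1307 bases and *Adam17* 5 in 1759 bases, of which the first after the stop codon is shown.
Tnf, chr17:35418562-35418574: ttttcTGTgaaaa
Tnf, chr17:35418407-35418419: ctcccCACgggag
Litaf, chr16:10778375-10778387: tctggCACtcaga
Tnfrsf1b, chr4:144941647-144941659: aaggcCACgcctt
Adam9, chr8:25439743-25439755: tctttCATaaaga
Adam17, chr12:21375147-21375159: tcatgTGCtatga

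No such stem-loop was found in the 3′UTRs of *Adam8* (545 bases), *Adam10* (2135), *Rhbdf1* (219), *Rhbdf2* (1006) and *Tnfrsf1a* (496). Among 13215 tested genes with a 3′UTR, 51.1% held at least 1. The share depended on length, with 25.7% of genes whose 3′UTR was within 20% of the length of *Adam8*, 58.6% for *Litaf*, 83.2% for *Tnfrsf1b* and 32.3% for *Tnf*. It was 60.8% for *Adam17*, 50.7% for *Adam9*, 68.5% for *Adam10*, 12.9% for *Rhbdf1*, 39.7% for *Rhbdf2* and 24.0% for *Tnfrsf1a*. Genes near *Adam17* in length held 0.564 stem-loops per kb. A match of letters is a description and no evidence of a cut.

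The total count per sample was 19610240 to 33986762 after the scrambled RNP and 23712029 to 28564062 after the *Zc3h12a* RNP. *Zc3h12a* itself was at 34.8 ± 6.65 CPM (read counts scaled to the TMM-normalised library size) and 33.2 ± 5.91 CPM (SD, n = 4 each), so its mRNA level did not tell the groups apart and gave no check of the labels. By Western blot the study found Regnase-1 protein depleted after such RNPs. It does not say whether these samples were blotted. Of 13 mast cell markers, all were counted, led by *Cpa3* at a median of 28400 CPM and *Kit* at 3562 CPM, with only *Tpsab1* at 0 to 3 counts. The markers summed to 55970 to 65580 CPM after the scrambled RNP and to 53080 to 56660 CPM after the *Zc3h12a* RNP. Macrophage markers (12 of 12 counted) summed to 13.2 to 21.0 and 15.8 to 20.2 CPM. The highest were *Cd68* (85 to 269 counts), *Lyz2* (78 to 224), *Adgre1* (56 to 111) and *Fcgr1* (10 to 58), each counted in every sample. *Csf1r*, *C1qa* and *C1qb* were at no more than 3 counts in any sample. The 6 neutrophil markers counted stayed at or under 0.523 CPM in sum, and the 7 of B and T cells at or under 5.85 CPM. The highest of the B and T cell markers was *Cd3e*, at 13 to 119 counts. Basophil markers (5 of 5) summed to 1874 to 2661 and 1854 to 2391 CPM, nearly all of it *Itga2b* and *Cd200r3* (medians 1654 and 498 CPM). *Il3ra* was at a median of 82.0 CPM, and the proteases *Mcpt8* and *Prss34* were at only 4.55 and 1.30 CPM. A group of 630 smell receptor genes, which mast cells are not known to use, served as a measure of background and was chosen after the values were seen. Its level differed between samples, from 0.0473 to 0.582 CPM per kb, and its log2 differences between the RNPs were 0.59, 2.96, 0.04 and -1.34 in pairs 1 to 4.

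Levels between genes were compared per kilobase of the canonical transcript. *Adam10* had the highest level among the proteases and their partners, with a median of 39.2 CPM per kb over the 8 samples, which placed it above 89.1% of the genes tested. It was followed by *Litaf* (21.7 CPM per kb), *Adam17* (15.5), *Adam9* (13.1), *Adam8* (7.34), *Rhbdf2* (5.25) and *Rhbdf1* (2.19). The receptors came last, with *Tnfrsf1b* at 0.483 and *Tnfrsf1a* at 0.0527 CPM per kb. *Tnf* itself was far above all of them at 390 CPM per kb, and its lowest sample exceeded the highest sample of *Adam10*.

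Some neighbours in this order were not separated. *Litaf* was above *Adam17* in 6 of 8 samples, *Adam17* above *Adam9* in 7 of 8, and *Adam8* above *Rhbdf2* in 5 of 8. The place of *Litaf* rested on the length used, 2252 bases for the canonical transcript and 5957 for all annotated exons. With the latter it was above *Adam17* in only 4 of 8 samples. The order of *Adam17* and *Adam9* rested on the transcript length as well, since with the length of all annotated exons *Adam17* was above *Adam9* in 0 of 8 samples. All other neighbours kept their order in 8 of 8 samples, although *Rhbdf1* was above *Tnfrsf1b* in only 6 of 8 with the length of all exons.

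**Figure D1:**
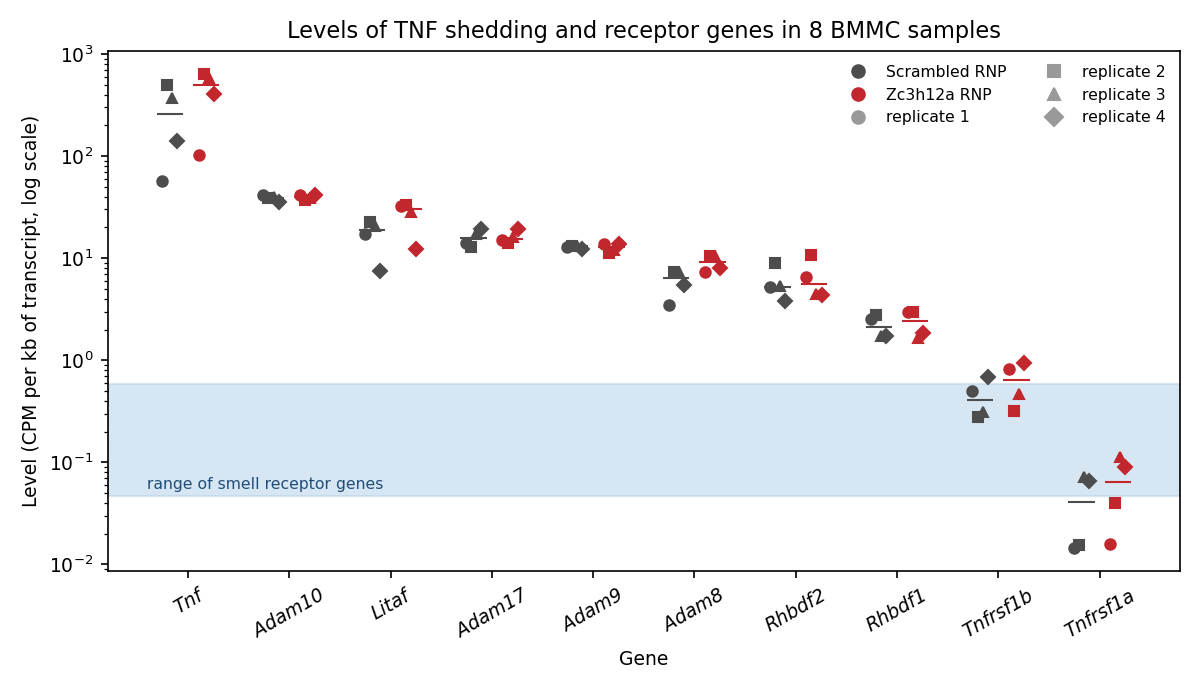
Level of each gene in CPM per kb of its canonical transcript on a log axis, in the 4 scrambled RNP samples (grey) and the 4 *Zc3h12a* RNP samples (red), with the marker shape giving the replicate and the short line the group median. The blue band spans the level of 630 smell receptor genes over the samples, 0.0473 to 0.582 CPM per kb; *Tnfrsf1b* lies at its upper edge and *Tnfrsf1a* in its lower part or under it.

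*Adam8* encodes a metalloprotease of leukocytes that can shed adhesion molecules (chromosome 7, 139558845 to 139572475, GRCm39, minus strand). In scrambled RNP samples 1 to 4 it was at 10.9, 22.9, 22.6 and 16.9 CPM, and in *Zc3h12a* RNP samples 1 to 4 at 22.8, 32.4, 33.0 and 25.1 CPM. Every *Zc3h12a* RNP sample was above its own partner, but the groups met, because *Zc3h12a* RNP sample 1 was just under scrambled RNP sample 2. The log2 difference was 1.06, 0.50, 0.55 and 0.57 in pairs 1 to 4, and the fitted log2 fold change was 0.67 (standard error 0.113). This is a 1.59-fold higher level, from 18.3 ± 5.67 to 28.3 ± 5.14 CPM (SD, n = 4 each). Counts were 343 to 802 per sample, so that counting error was small beside the differences between replicates. Pair 1 held the largest difference, and without it the log2 fold change was 0.58. In bulk RNA, a change in the share of cells with a transcript and a change in RNA per cell cannot be told apart, which holds for all genes here.

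*Adam17*, the gene of TACE (chromosome 12, 21373510 to 21423672), was at 63.7, 57.8, 77.6 and 86.8 CPM in scrambled RNP samples 1 to 4. After the *Zc3h12a* RNP it was at 67.0, 63.1, 72.1 and 86.7 CPM in the same order. Samples of a replicate number lay close together, with pair 4 highest in both groups and pair 2 lowest. The log2 fold change was 0.02 (standard error 0.078), with a 95% interval of -0.16 to 0.20 (adjusted p = 0.975, edgeR's quasi-likelihood test). The interval lies inside the fold threshold used here, 0.5 on the log2 scale in either direction.

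*Adam10* encodes the sheddase closest to ADAM17, known for cutting Notch receptors and the low-affinity IgE receptor (chromosome 9, 70586221 to 70687511). It was at 192, 179, 184 and 164 CPM in scrambled RNP samples 1 to 4 and at 194, 173, 180.0 and 193 CPM in *Zc3h12a* RNP samples 1 to 4. The highest and the lowest of the 8 samples were 1.19-fold apart. Its log2 fold change was 0.04 (standard error 0.084, 95% interval -0.15 to 0.24, adjusted p = 0.962 in the same test).

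*Adam9*, a widely used member of the family (chromosome 8, 25439626 to 25507096), was at 54.0, 54.7, 54.9 and 51.2 CPM and, in *Zc3h12a* RNP samples 1 to 4, at 56.8, 47.3, 50.4 and 57.3 CPM. The scrambled RNP samples lay inside the range of the *Zc3h12a* RNP samples. The log2 fold change was -0.02 (standard error 0.09, 95% interval -0.23 to 0.19, adjusted p = 0.975 in the same test).

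Set against *Adam17* in the same sample, which needs no scaling between libraries, *Adam8* was at 0.245 to 0.569 of its level per kb after the scrambled RNP (median 0.341). After the *Zc3h12a* RNP it was at 0.416 to 0.739 (median 0.567). The ratio was higher in 4 of 4 pairs, by 0.65 ± 0.258 on the log2 scale (SD over pairs), but it holds the *Adam8* values that chose the gene and is given without a test. *Adam10* was 2.57 times the level of *Adam17* after the scrambled RNP and 2.52 times after the *Zc3h12a* RNP (medians, n = 4 each). This ratio differed by 0.02 ± 0.177 on the log2 scale within pairs, less than the spread over pairs (exact two-sided sign-flip permutation test, p = 0.75; of 16 sign assignments at least 2 are always as large, so that 4 pairs cannot reach 0.05).

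The iRhom genes are on chromosome 11, *Rhbdf1* at 32158700 to 32172947 and *Rhbdf2* at 116488839 to 116517845. *Rhbdf2*, whose product iRhom2 is the main iRhom of blood cells, was at 20.1, 34.5, 20.4 and 14.8 CPM in scrambled RNP samples 1 to 4. After the *Zc3h12a* RNP it was at 25.5, 41.7, 17.2 and 17.0 CPM in the same order. Pair 2 was highest in both groups, and 3 of 4 pairs were higher after the *Zc3h12a* RNP. The log2 fold change of 0.15 (standard error 0.113) had a 95% interval of -0.12 to 0.41 (adjusted p = 0.960, test as above).

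*Rhbdf1*, the gene of iRhom1, was at 9.04, 9.96, 6.18 and 6.19 CPM and, in *Zc3h12a* RNP samples 1 to 4, at 10.8, 10.6, 5.88 and 6.72 CPM. Replicates 1 and 2 were above replicates 3 and 4 in both groups. The log2 fold change was 0.10 (standard error 0.143, 95% interval -0.23 to 0.43, adjusted p = 0.960 in the same test). Per kb, *Rhbdf2* exceeded *Rhbdf1* in 8 of 8 samples, 2.62-fold after the scrambled RNP and 2.53-fold after the *Zc3h12a* RNP (medians). Within pairs this ratio differed by 0.05 ± 0.154 on the log2 scale (exact two-sided sign-flip permutation test, p = 0.625).

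*Litaf* encodes a small membrane protein of late endosomes and lysosomes that was first named as a factor for TNF induction (chromosome 16, 10777139 to 10884021). In scrambled RNP samples 1 to 4 it was at 38.6, 51.5, 46.3 and 16.9 CPM, and in *Zc3h12a* RNP samples 1 to 4 at 72.5, 74.4, 64.4 and 27.6 CPM. Replicate 4 was the lowest in both groups, and its *Zc3h12a* RNP sample was under 3 of the 4 scrambled RNP samples, so that the groups overlapped although each pair was higher after the *Zc3h12a* RNP. The log2 differences were 0.91, 0.53, 0.47 and 0.70 in pairs 1 to 4. The fitted log2 fold change was 0.65 (standard error 0.096), a 1.57-fold higher level, from 38.3 ± 15.2 to 59.7 ± 21.8 CPM (SD, n = 4 each). The levels of the 8 samples spanned 4.39-fold, more than the change between the RNPs.

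*Tnfrsf1b*, the gene of TNFR2 (chromosome 4, 144938938 to 144973477), had 36 to 143 counts per sample. It was at 2.44, 1.37, 1.54 and 3.38 CPM in scrambled RNP samples 1 to 4 and at 4.06, 1.56, 2.30 and 4.64 CPM in *Zc3h12a* RNP samples 1 to 4. All 4 pairs were higher after the *Zc3h12a* RNP, by 0.72, 0.18, 0.56 and 0.45 on the log2 scale, and the groups overlapped. The fitted log2 fold change was 0.49 (standard error 0.325). Per kb, *Tnfrsf1b* was 0.799 to 5.88 times the level of the smell receptor genes in the same sample and above it in 6 of 8 samples. The part of this background in the receptor's count was not tested.

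*Tnfrsf1a*, the gene of TNFR1 (chromosome 6, 125325566 to 125339632), was close to absent from these libraries. Its counts were 1, 1, 4 and 3 in scrambled RNP samples 1 to 4 and 1, 2, 6 and 6 in *Zc3h12a* RNP samples 1 to 4, or 9 and 15 in all. Per kb it was under the smell receptor genes in 8 of 8 samples, at 0.0693 to 0.390 of their level, so that its counts did not stand above this background. The smell receptor level is thus no floor that every gene reaches, and lying under it does not tell noise from transcripts. *Tnfrsf1a* was the only one of the 9 genes that did not pass the filter on low counts. With no such filter its log2 fold change was 0.66 (unadjusted p = 0.5803, adjusted p = 0.9999 by edgeR's quasi-likelihood test), and a difference was not detectable at this depth. Over all samples, 580 counts of *Tnfrsf1b* stood against 24 of *Tnfrsf1a*. Per kb and with 0.5 added to each count, the ratio of *Tnfrsf1b* to *Tnfrsf1a* ran from 3.89 to 22.9 in the scrambled RNP samples and from 3.85 to 34.7 in the *Zc3h12a* RNP samples. *Tnfrsf1b* was thus the higher in 8 of 8 samples, but the size of the ratio rests on a gene under the background.

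**Figure D2:**
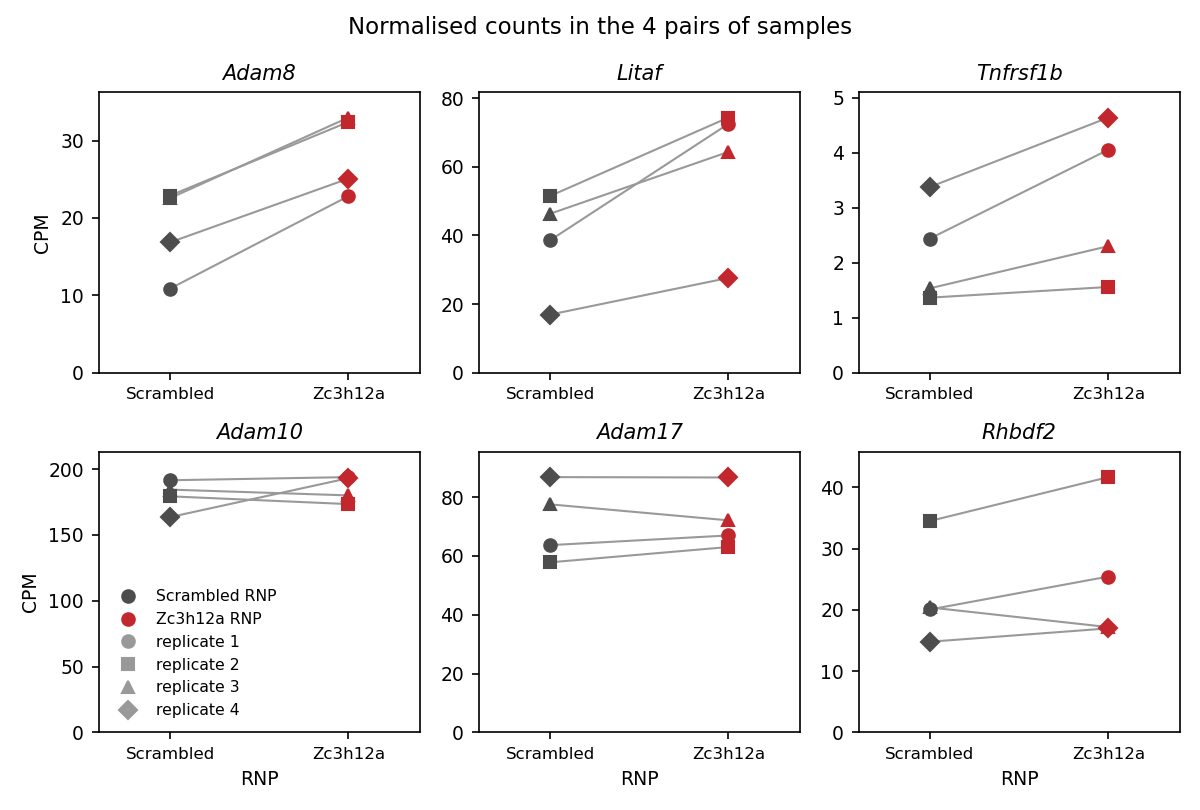
CPM of 6 genes in the scrambled and *Zc3h12a* RNP samples, with a grey line joining the samples of a replicate number and each axis starting at 0. *Adam8*, *Litaf* and *Tnfrsf1b* slope upwards in 4 of 4 pairs, *Adam10* and *Adam17* in 2 of 4 and *Rhbdf2* in 3 of 4, and the groups overlap in every panel.

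Read together, 8 of the 9 genes entered the fit over 14934 genes. By edgeR's quasi-likelihood test, in which replicate numbers formed the blocks, 0 of 8 were higher and 0 were lower at a log2 fold change beyond 0.5 and an adjusted p at or under 0.05, where 0% of all genes tested passed in each direction. At an unadjusted p at or under 0.05 and the same fold, *Adam8* and *Litaf* were past both limits, beside 0.248% of all genes higher and 0.623% lower. DESeq2 with the same block also called *Adam8* and *Litaf*, and 0.0536% of all genes, higher. These genes were called too with edgeR when replicate 2 was left out (0.53% of 15082 genes higher), with no low-count filter (0.0383% of 23473) and with limma-trend after the replicate effect had been removed (0.228%). As both genes were chosen by this contrast, nothing is read from these calls. *Adam8* and *Litaf* were the members just inside the limit on the fold, at 0.67 and 0.65, and *Tnfrsf1b* at 0.49 was just outside it. The standard error of *Tnfrsf1b* was 0.325, and it was called under 0 of 12 alternative settings.

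Among the 8 genes tested, 3 were higher in all 4 pairs (4.98% of all genes) and 0 were lower in all 4 (8.54% of all genes). In 0 of the 9 genes did every *Zc3h12a* RNP sample exceed every scrambled RNP sample, which 0.261% of all genes did. The 3 genes are *Adam8*, *Litaf* and *Tnfrsf1b*, those chosen by this contrast. The median log2 fold change was 0.12 over the 8 genes and 0.04 over all genes tested, of which 57.8% were above 0.

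**Figure D3:**
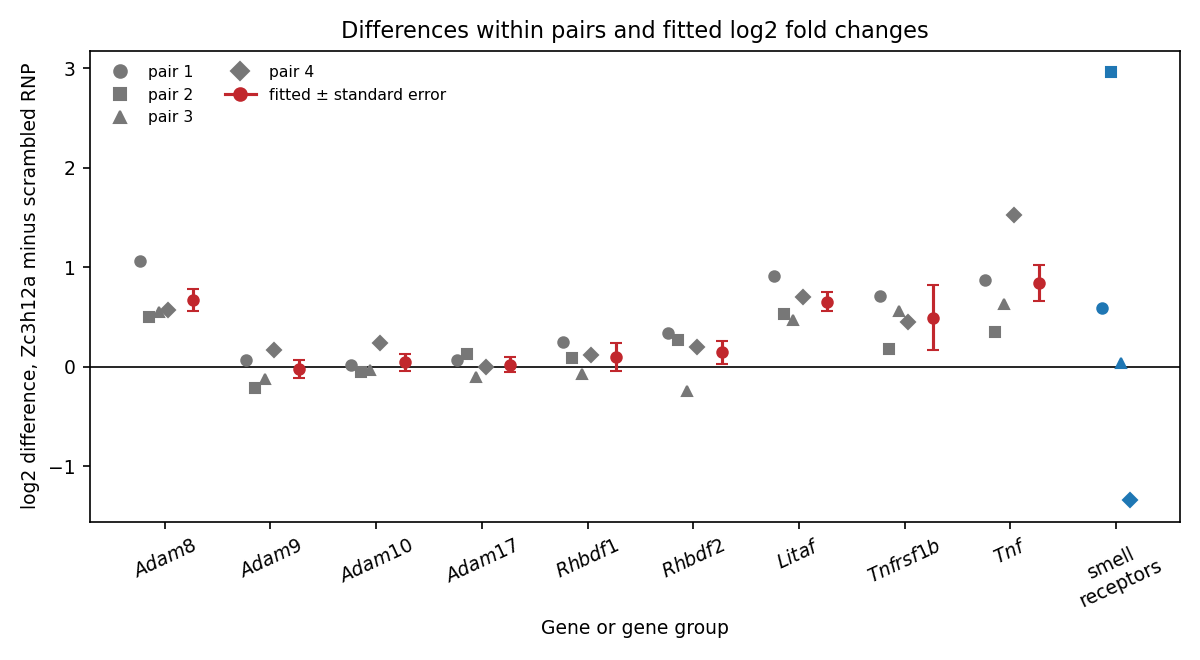
Log2 difference between *Zc3h12a* and scrambled RNP in each of the 4 pairs (grey) and the fitted log2 fold change with its standard error (red) for 8 genes and *Tnf*, beside the pair differences of 630 smell receptor genes (blue). The fitted values of *Adam9*, *Adam10*, *Adam17*, *Rhbdf1* and *Rhbdf2* lie between -0.02 and 0.15, and the smell receptor genes run from -1.34 in pair 4 to 2.96 in pair 2.

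*Tnf*, the substrate, was at 92.4, 814, 611 and 232 CPM in scrambled RNP samples 1 to 4 and at 169.8, 1035, 945 and 668 CPM in *Zc3h12a* RNP samples 1 to 4. Replicate 1 was the lowest in both groups, and the level spanned 11.2-fold over the 8 samples. Over the same samples *Adam8* and *Tnf* were correlated (Pearson r = 0.865, Spearman rho = 0.881, n = 8), as a description only, since the samples share RNPs and replicate numbers. For the other sheddases r was -0.007 (*Adam17*), -0.271 (*Adam10*) and -0.342 (*Adam9*). For *Litaf* r was 0.308. *Rhbdf1* and *Rhbdf2* moved together (r = 0.823, rho = 0.667), while *Adam17* ran against *Rhbdf1* (r = -0.799) and *Rhbdf2* (r = -0.802). Other pairs were not far below in size, such as *Adam9* with *Adam10* (r = 0.727), *Adam17* with *Litaf* (-0.708) and *Rhbdf2* with *Litaf* (0.681). These values are a description too, for the same reason.

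The genes also differed in how steady they were between samples of a group. *Adam10* and *Adam9* had an SD of 0.089 and 0.101 on the log2 scale within groups. Only 1.2% and 2.5% of tested genes of like level (within 0.5 log2 CPM) had a smaller one. *Adam17* was in the middle of such genes (SD 0.235, 38.6%), as was *Rhbdf1* (0.403, 56.9%). *Rhbdf2* (0.56, 92.8%) and *Litaf* (0.702, 98.1%) were among the most variable, and *Adam8* was above the middle (0.401, 75.9%). The SD of the log2 difference within pairs was under the SD within groups for *Litaf* (0.196), *Adam8* (0.264), *Adam17* (0.1), *Rhbdf1* (0.133) and *Rhbdf2* (0.265). It was above the SD within groups for *Adam9* (0.172) and *Adam10* (0.134). Between unrelated samples a difference varies more than a single sample does, so that a value above the SD within groups is not read as a trait of these 2 genes.

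The genes most like a member were taken from 8660 genes with a mean log2 CPM above 3, by Pearson correlation of log2 CPM over the 8 samples. For *Adam8* they were *Arhgap26* (r = 0.971) and *Cdk5rap2* (0.932), and for *Litaf* *Cd244a* (0.976) and *Exosc2* (0.963). For *Adam17* they were *Rcor3* (0.987) and *Cep162* (0.985), for *Adam10* *Fpgs* (0.927) and *Rpusd1* (0.923), and for *Adam9* *Rhot2* (0.946) and *Mllt1* (0.929). *Rhbdf1* was most like *Atxn1* (0.987) and *Zbtb39* (0.975), and *Tnfrsf1b* like *Pla2g6* (0.983) and *Lzts2* (0.966). These are the highest of 8660 values each, over 8 samples that share RNPs and replicate numbers, and are given as a description.

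The wider pathway was followed in 6 lists of 112 genes, of which 95 could be tested. By edgeR's test with the block, 0 were called higher and 0 lower. DESeq2 called 2 higher (*Tnf* and *Sorl1*) and 2 lower (*Tnfaip3* and *Il1r2*), beside 0.0536% and 0.335% of all genes. At an unadjusted p at or under 0.05 of any size, 4 were higher and 5 lower, beside 2.12% and 4.05% of all genes tested. The higher genes were *Tnf*, *Sorl1*, *Mlkl* and *Traf3*, and the lower ones *Timp3*, *Il1r2*, *Tnfrsf13b*, *Tnfaip3* and *Birc3*.

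Among 21 regulators of ADAM10 and ADAM17, 16 were tested, with a median log2 fold change of 0.08. *Furin*, a convertase that removes the inhibiting prodomain of ADAM10 and ADAM17, had the highest level, at 2414 ± 185 and 2335 ± 251 CPM (SD, n = 4 each). Per kb its median was 529 CPM, above that of *Tnf*. *Timp3*, the tissue inhibitor that blocks ADAM17, had the lowest log2 fold change of the list, -0.38 (adjusted p = 0.686 by edgeR's quasi-likelihood test), from 99.3 ± 14.2 to 76.2 ± 10.3 CPM, and was lower in 3 of 4 pairs. The highest log2 fold change of the list was that of the tetraspanin *Tspan15*, 0.60 with a standard error of 0.817, at only 3 to 52 counts. Its pair differences of 0.80, 2.89, 0.09 and -1.34 ran close to those of the smell receptor genes.

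The other ADAM proteases (7 of 9 tested, median log2 fold change 0.31) were mostly at low levels. *Adam15* was the highest, at 12.0 ± 2.40 and 13.4 ± 0.94 CPM. *Adam12* had the highest log2 fold change (0.98, standard error 0.706, 3 to 15 counts) and *Adam28* the lowest (0.17, standard error 0.729). Both were at or under the highest level of the smell receptor genes, as were 18 of the 95 pathway genes tested. Of those 18, 12 were higher by more than 1 on the log2 scale in pair 2 and lower by more than 0.5 in pair 4, as the smell receptor genes were, against 3 of the other 77. The part of this background in their differences was not tested.

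Of 27 membrane proteins known to be shed by ADAM10 or ADAM17, 21 were tested, with 12 log2 fold changes above 0 and 9 below. *Kit*, the receptor of stem cell factor, had the highest level, at 3459 ± 503 and 3345 ± 641 CPM. *Sorl1*, a sorting receptor that ADAM17 sheds, had the highest log2 fold change, 0.91 (standard error 0.171, adjusted p = 0.401), from 8.09 ± 2.77 to 14.9 ± 3.78 CPM, and was higher in 4 of 4 pairs. *Areg*, the growth factor amphiregulin, had the lowest, -0.86 (standard error 0.46), at 1 to 149 counts and lower in 4 of 4 pairs. *Il1r2*, a decoy receptor of IL-1, went from 170.2 ± 54.9 to 109.9 ± 42.7 CPM (log2 fold change -0.65, standard error 0.128, adjusted p = 0.401 by edgeR's quasi-likelihood test), lower in 4 of 4 pairs.

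The list of TNF receptor complexes held 30 genes, all tested, with 13 log2 fold changes above 0 and 17 below (median -0.05). *Tab2*, an adaptor of the kinase TAK1, had the highest level, at 284 ± 39.5 and 269.8 ± 28.0 CPM. *Mlkl*, which breaks the membrane in necroptosis, went from 13.5 ± 4.17 to 20.1 ± 4.11 CPM (log2 fold change 0.60, standard error 0.131) and was higher in 4 of 4 pairs. *Tnfaip3*, the gene of the NF-κB inhibitor A20, went from 129 ± 90.5 to 75.9 ± 39.1 CPM (-0.70, standard error 0.154), with 4 of 4 pairs lower. For both, edgeR gave an adjusted p = 0.424.

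Of 20 other ligands and receptors of the TNF family, 16 were tested, 8 with a log2 fold change above 0 and 8 below. *Tnfsf14*, the ligand LIGHT, had the highest median level per kb, 28.9 CPM, and was at 68.9 ± 51.5 and 54.2 ± 29.5 CPM before scaling to length. *Tnfrsf10b*, a death receptor, had the highest log2 fold change (0.23, standard error 0.107, higher in 4 of 4 pairs), and *Tnfsf13b*, the ligand BAFF, the lowest (-0.84, standard error 1.06, 0 to 15 counts). The relatives and endosomal partners of LITAF (5 of 5 tested) had a median of -0.05. They were led by the ubiquitin ligase *Nedd4* at 888 ± 79.8 and 874 ± 130.4 CPM, with log2 fold changes from -0.23 (*Wwox*) to 0.09 (*Cdip1*).

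**Figure D4:**
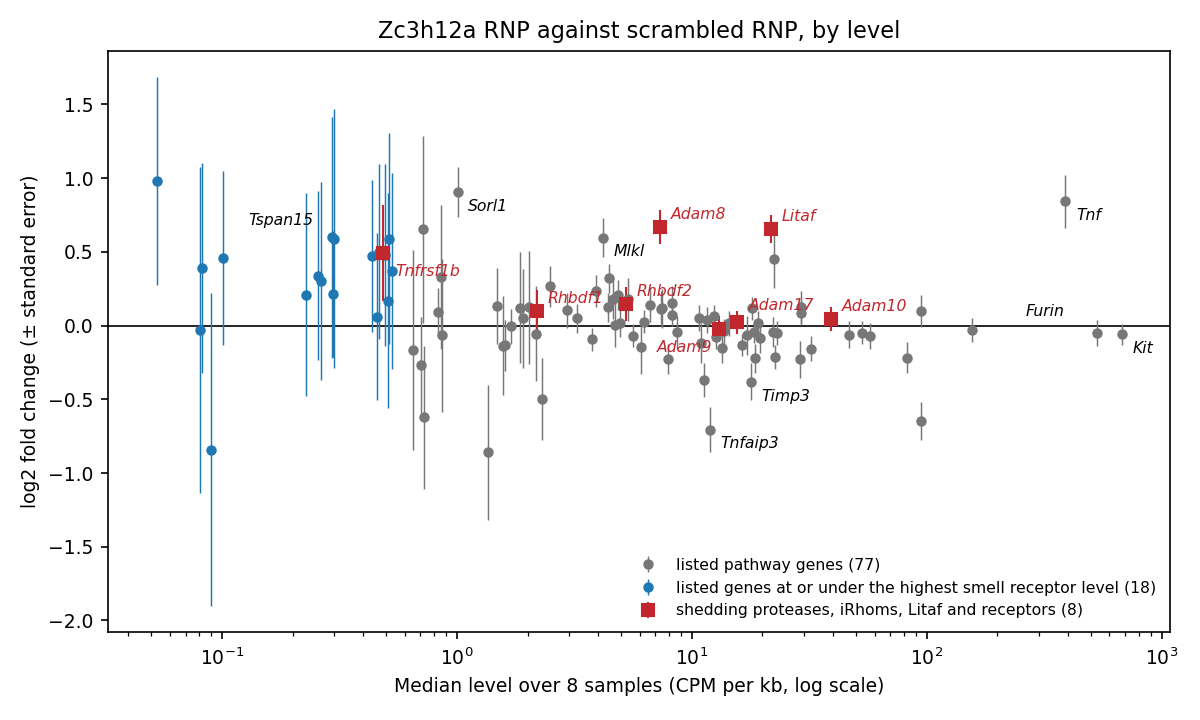
Fitted log2 fold change with its standard error against the median level in CPM per kb on a log axis, for 8 TNF shedding and receptor genes (red), 77 listed pathway genes (grey) and 18 at or under the highest smell receptor level (blue). *Adam8*, *Litaf* and *Tnfrsf1b*, which were chosen by values of this contrast, lie at 0.67, 0.65 and 0.49. The other sheddases and the iRhoms lie between -0.02 and 0.15. Standard errors widen towards the low levels at the left.

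All genes described but *Adam10* share exon bases with a gene of the opposite strand in GENCODE, from 19 bases for *Tnfrsf1a* (with *Plekhg6*) to 396 for *Adam9* (with *Tm2d2*). The overlap was 341 bases for *Adam17* (with *Iah1*), 285 for *Rhbdf1* (with *Snrnp25*), 97 for *Litaf* (with *Snn*) and 46 for *Adam8* (with *Gm16201*). The strand setting of the counting is not given in the sources used here, so that reads from these stretches could not be assigned.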

How the data were processed

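RNA-seq counts of 8 BMMC samples were used. The authors enriched poly(A) RNA, prepared Tecan Revelo libraries, mapped reads to GRCm39 (HISAT2 2.2.1), obtained gene counts with featureCounts 2.0.1 and deposited the raw counts, 1 sample per table. The strand setting and the handling of multi-mapping reads are not given in the sources used here. The batch correction named in the study's methods is not part of the deposited counts, which are whole numbers.

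Counts of the whole table were tested with edgeR 4.0.16 (R 4.3.3) by the quasi-likelihood test, after TMM normalization and filterByExpr, with replicate number as a blocking factor, since the study removed a batch effect before testing. Adjustment was by Benjamini-Hochberg over 14934 genes, and a call needed a log2 fold change beyond 0.5. The study used the same limit on the fold with P at or under 0.05, which it does not state to be adjusted. It combined DESeq2, edgeR and limma after batch correction, so that its list and the calls here rest on unlike limits and methods. Log2 CPM used a prior count of 2. Standard errors were taken from the fold change and the F statistic (absolute log2 value over root F). The 12 alternatives included DESeq2 1.42.0, limma-trend (limma 3.58.1), other normalizations and filters, no block, and leaving out each replicate. The scripts were tested on simulated data with no replicate effect, which is no guide to error rates in data with one. Ratios were compared by an exact sign-flip test (Python 3.11.15), and figures drawn with matplotlib 3.10.9. For 22601 of 24059 symbols a gene was found in GENCODE's annotation of GRCm39. Lengths of smell receptor genes are RefSeq gene spans of at most 1500 bases (GRCm38).

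The methods give 4 independent biological replicates, and neither the methods nor the labels state that a replicate number marks 1 culture. Deviations from group means of same-numbered samples correlated at 0.595, 0.075, 0.624 and 0.041 over all genes tested, where samples of different numbers reached 0.398, and at 0.756, 0.717, 0.728 and 0.719 over 9668 genes with a mean log2 CPM above 2, where they reached 0.137. The p-values with the block measure the spread of the differences within replicate numbers. They hold only if a number marks samples that belong together.

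The genes, the pathway lists and the rule for named genes were chosen with earlier results of these data known. Named are all 9 genes, *Tnf*, *Zc3h12a*, from each list the gene with the highest level per kb and those with the highest and lowest log2 fold change, and for each gene the 2 most like it. The genes most like *Rhbdf2* are not reported here. *Il1r2*, *Traf3*, *Birc3* and *Tnfrsf13b* were named after their values were seen. Protein sequences were not used here.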

Additional observations from a re-analysis of the deposited data

Results flagged for a closer look

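In 38 groups of 4 samples, log2 CPM of the genes described and related values were examined for a sample far from the other 3, by Dixon's ratio of the gap to the nearest sample over the whole range. A ratio above the 95% critical value was met 2 times, where chance at 1 in 20 gives 1.9.

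*Litaf* in *Zc3h12a* RNP sample 4 was at a log2 CPM of 4.79, against 6.01 to 6.22 in the other 3, a ratio of 0.854. Scrambled RNP sample 4 was the lowest of its group as well.

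*Zc3h12a* in scrambled RNP sample 1 was at a log2 CPM of 4.65, against 5.22 to 5.30 in the other 3, a ratio of 0.872.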

How the results depend on the processing

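By edgeR with the block, 0 of the genes described were called, while *Adam8* and *Litaf* were called higher under 4 of 12 alternatives. Both were chosen by values of this contrast, so that the count of settings is no support for them. All genes past both limits, higher and lower, were 8 and 50 with DESeq2, 34 and 79 after removal of the replicate effect followed by limma-trend, and 9 and 31 with no low-count filter. They were 0 and 1 with limma-trend and with DESeq2's size factors, and 0 and 3 with at least 10 counts in every sample. Leaving out 1 replicate gave 0 to 80 higher and 0 to 57 lower, the most without replicate 2. Of the genes described, 2 were higher with DESeq2, after removal of the replicate effect and with no low-count filter, and 0 to 2 with 1 replicate left out. Of the pathway genes, 2 were higher and 2 lower with DESeq2, 3 and 2 after removal of the replicate effect, and 2 and 1 with no low-count filter; with 1 replicate left out 0 to 4 were higher and 0 to 2 lower. *Tnf*, *Sorl1* and *Tnfaip3* were called under 4 of these settings each. With no replicate block, 0 genes were called in either direction, and the log2 fold change was 0.63 for *Adam8* and 0.64 for *Litaf*. The limma-trend fit after removal of the replicate effect did not count the effect removed, which leaves its p-values too small. For *Adam8* the log2 fold change was 0.671 in both limma-trend fits, with a standard error of 0.12 with the block and 0.086 after removal. The cause of the other differences between tools was not tested.

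Over the 12 alternatives the log2 fold change was 0.58 to 0.79 for *Adam8*, 0.61 to 0.76 for *Litaf*, 0.41 to 0.65 for *Tnfrsf1b*, 0.12 to 0.22 for *Rhbdf2*, 0.08 to 0.17 for *Rhbdf1* and 0.00 to 0.09 for *Adam17*. The sign turned for *Adam9* (0.044 by library totals, 0.009 with no low-count filter, -0.085 to 0.10 with 1 replicate left out), *Adam10* (-0.021 to 0.136 with 1 replicate left out) and *Zc3h12a* (0.005 by library totals, -0.075 to 0.006 with 1 replicate left out), all near 0. Library totals moved the median of all genes to 0.11. With 1 replicate left out, the log2 difference of the *Adam8* to *Adam17* ratio was 0.54 to 0.74, while the ratios near 0 turned sign: *Adam10* to *Adam17* (-0.052 to 0.086), *Rhbdf2* to *Rhbdf1* (-0.003 to 0.118) and *Tnfrsf1b* to *Tnfrsf1a* (-0.275 to 0.233). *Tnfrsf1a* had no more than 6 counts in any sample and was under the smell receptor level in 8 of 8, and *Tnfrsf1b* was above it in 6 of 8.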
